A study of Mus musculus with 10 samples.

Results

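The neurons described here are the 5779 cells that the deposited annotation calls Neuron, of 68914 annotated cells (8.39%). They were taken from the table by that class name, and the annotation divides them into 3 clusters, numbered 17, 3 and 7. Cluster 17 held 3417 cells (59.1% of neurons), cluster 3 held 1896 (32.8%) and cluster 7 held 466 (8.06%). The cells, in 10 libraries, came from the hippocampi of wild-type (WT) male C57BL/6 mice. The mice were 11 weeks old, and tissue was collected 3 days after an injection into each hippocampus. Vehicle was injected for 4 libraries. The protein neurofilament light chain (NfL) was injected at 1 mg/ml. It was the full-length form (FL-NfL) for 3 libraries and the coiled-coil portion (CC-NfL) for the other 3. No group was given an unrelated protein, so any response to NfL and any response to an injected protein in general cannot be told apart. Every group received an injection, and no uninjected hippocampus was compared.

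Neurofilament light chain is a subunit of the intermediate filaments that fill axons, and it leaves damaged neurons into the fluid around them. The hippocampus is built mainly of excitatory pyramidal and granule neurons, which use glutamate, with scattered inhibitory interneurons, which use GABA. A neural progenitor niche in the dentate gyrus adds young granule neurons in adult rodents. Mature neurons carry long processes that are cut when tissue is dissociated, and many of them do not survive as whole cells. Here the tissue was broken down enzymatically with actinomycin D added, a blocker of transcription, and live cells were sorted. The percentages below are therefore shares of the cells that came through dissociation, sorting and the authors' annotation, and not of the cells in the tissue.

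Snap25, a synaptic vesicle fusion protein found in most neurons, Slc17a7, a glutamate transporter of excitatory neurons, and Gad1, a GABA-synthesising enzyme of inhibitory neurons, were set as markers of these cells. The table used here gives a class, a cluster number and map positions for each cell and no gene values, so neither the class name nor the clusters were checked against those genes. The clusters are called by their numbers for that reason.

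The labels name a batch b1, with 2 libraries of each group, and a batch b2, with 2 vehicle libraries and 1 for each protein. Annotated cells ranged from 3150 to 6025 per library in b1 and from 8800 to 14141 in b2, and barcodes without annotation made up 42.0% to 71.3% of a library in b1 and 17.3% to 20.7% in b2. Batch b2 held 63.9% of annotated cells and 71.7% of neurons. Neurons numbered 81 to 455 per library in b1 and 565 to 1713 in b2, which is the depth behind every share within neurons. For 109 neurons (1.89%), the same barcode sequence was also an annotated cell of another library, and 6 sequences were neurons in more than 1 library. The 3 libraries numbered 1, 1 in each group and all of batch b1, stood apart by their neural progenitor cells (class NPC). These were 13.5% to 20.5% of annotated cells against 1.82% to 5.88% in the other 7. Estimates that changed sign without those 3 libraries are therefore also given.

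Neurons as a whole showed no change with either protein that passed the test, and their share differed widely between libraries of the same group. In the 4 vehicle libraries neurons made up 2.09%, 10.6%, 9.59% and 6.42% of annotated cells, from 81, 350, 936 and 565 neurons. After FL-NfL they made up 5.14%, 4.70% and 8.22%, from 217, 148 and 931 neurons. After CC-NfL they made up 8.86%, 7.55% and 12.1%, from 383, 455 and 1713 neurons. All 3 FL-NfL libraries lay inside the vehicle range, and 1 of the 3 CC-NfL libraries lay above it. Vehicle library 1 was the lowest of all, with a 95% exact binomial (Clopper-Pearson) interval of 1.66% to 2.59% that did not reach the interval of the next vehicle library, 5.92% to 6.95%. These intervals cover counting error only.

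**Figure D1:**
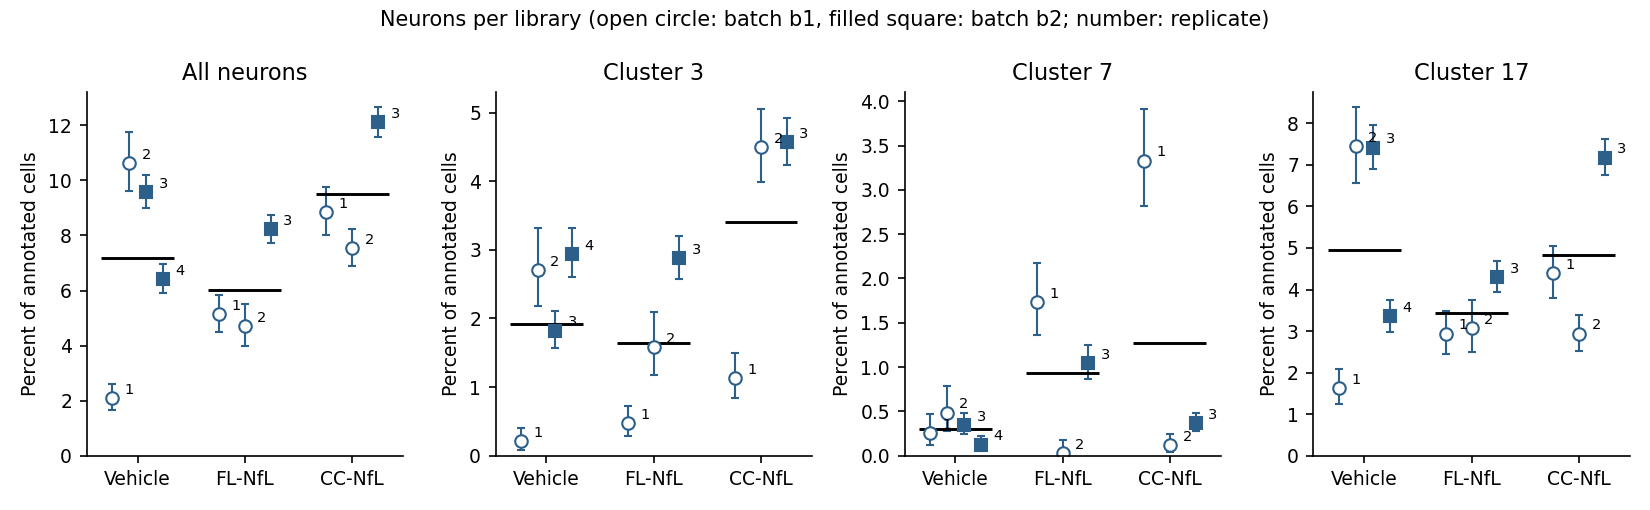
Neurons, and clusters 3, 7 and 17 of them, as percent of annotated cells in each library by group, with 95% exact binomial intervals (bars), group means (black lines), batch (open circles b1, filled squares b2) and replicate number. All 3 FL-NfL libraries sit inside the vehicle range of 2.09% to 10.6% for neurons, and cluster 7 runs from 0.0317% to 3.33%.

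Neurons averaged 7.18% ± 3.84 in vehicle libraries (SD, n = 4). The mean for FL-NfL was 6.02% ± 1.92 (SD, n = 3), or 0.84 times the vehicle mean, and that for CC-NfL 9.51% ± 2.35 (SD, n = 3), or 1.32 times. Shares were tested as log2 odds, the log2 ratio of the cells of an item to all other cells, in limma with batch as a term over all 10 libraries, with 0.05 as the threshold for the adjusted p. For FL-NfL against vehicle the log2 odds ratio of neurons was 0.04 (SE 0.55, 95% interval -1.22 to 1.30, limma adjusted p = 0.993). For CC-NfL against vehicle it was 0.77 (SE 0.55, interval -0.49 to 2.03, limma adjusted p = 0.604). Neurons were thus not among the classes called after FL-NfL, which were 12.5% of 16 classes. After CC-NfL limma called 0% of classes; before adjustment 3 of 16 had p under 0.05, and a quasi-binomial model called 0. The intervals include a halving and a doubling of the odds for FL-NfL, and a 4-fold rise for CC-NfL.

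FL-NfL and CC-NfL were compared in the same fit, and the estimate for neurons, in log2 odds, was -0.73 (SE 0.58, interval -2.07 to 0.61, limma adjusted p = 0.787). Limma called 0% of classes between the proteins; before adjustment 1 had p under 0.05, and quasi-binomial fits called 0. Two-sided exact permutation of the library percentages gave p = 0.686 for FL-NfL against vehicle, p = 0.457 for CC-NfL against vehicle and p = 0.200 between the proteins. The smallest p such a test can give is 0.0286 for 4 against 3 libraries and 0.1 for 3 against 3. Both proteins were compared with the same 4 vehicle libraries, so a low or high vehicle library moves both estimates together. Vehicle libraries 1 and 2 did so, in opposite directions. Without vehicle library 1 the log2 odds ratio was -0.51 for FL-NfL and 0.22 for CC-NfL. Without vehicle library 2 it was 0.59 for FL-NfL and 1.31 for CC-NfL.

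Within batch b1 the 2 vehicle libraries averaged 6.36% neurons, the 2 FL-NfL libraries 4.92% and the 2 CC-NfL libraries 8.20%. Within batch b2 the 2 vehicle libraries averaged 8.00%, against 8.22% in the single FL-NfL library and 12.1% in the single CC-NfL library. The order in b1 rests on both of its vehicle libraries. Without vehicle library 1, vehicle is the single library at 10.6%, above both CC-NfL libraries of that batch. Without vehicle library 2, it is the single library at 2.09%, below both FL-NfL libraries of that batch. Neurons averaged 6.50% ± 3.11 (SD, n = 6) in b1 and 9.09% ± 2.40 (SD, n = 4) in b2, with a batch log2 odds ratio of 0.73 (SE 0.47, limma adjusted p = 0.628). The single class called between batches, 6.25% of the 16, was not neurons. The two-sided exact permutation p for neurons between batches was 0.200, where 0.00476 is the smallest possible.

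The share of neurons also depends on what else is counted, since a rise of another class lowers it. Among the non-immune cells, neurons made up 11.3% ± 6.48 in vehicle libraries (SD, n = 4), 10.0% ± 2.05 in FL-NfL libraries (SD, n = 3) and 15.2% ± 3.29 in CC-NfL libraries (SD, n = 3). Among all barcodes, annotated or not, they made up 4.85% ± 2.81, 3.67% ± 2.79 and 6.05% ± 3.08. CC-NfL had the highest mean and FL-NfL the lowest over annotated cells, non-immune cells and all barcodes. Among non-immune cells the CC-NfL libraries ran from 13.1% to 19.0% and the FL-NfL libraries from 8.55% to 12.3%, without overlap. Vehicle libraries ran from 2.83% to 17.6% and overlapped both. Over annotated cells and all barcodes the FL-NfL and CC-NfL libraries overlapped. No comparison of neurons passed the test with any of these denominators. Among neurons, Reelin neurons and NPC together the order was another, with 57.4% ± 31.5 neurons in vehicle, 53.9% ± 20.9 in CC-NfL and 47.5% ± 17.3 in FL-NfL libraries. Fewer neurons and more of other cells cannot be told apart in such shares.

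Cluster 17, the most numerous, was the steadiest of the 3 neuron clusters. In vehicle libraries it made up 1.63%, 7.45%, 7.42% and 3.35% of annotated cells. After FL-NfL it made up 2.94%, 3.08% and 4.30%, and after CC-NfL 4.39%, 2.94% and 7.18%. Every NfL library lay inside the vehicle range. The log2 odds ratios were -0.21 (SE 0.58) for FL-NfL, 0.23 (SE 0.58) for CC-NfL and -0.44 (SE 0.62) between the proteins, with limma adjusted p-values of 0.925, 0.840 and 0.920. After group and batch were fitted, its residual SD was 0.78 in log2 odds, the 18th highest of 31 clusters tested, whose median was 0.82.

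Cluster 3 spread more. Its shares of annotated cells were 0.207%, 2.71%, 1.82% and 2.94% in vehicle libraries, 0.474%, 1.59% and 2.88% after FL-NfL and 1.13%, 4.50% and 4.57% after CC-NfL. Libraries numbered 1 were the lowest of each group, and 2 of the 3 CC-NfL libraries lay above every vehicle library. The CC-NfL mean of 3.4% ± 1.96 (SD, n = 3) was 1.77 times the vehicle mean of 1.92% ± 1.24 (SD, n = 4). Its log2 odds ratio of 1.37 (SE 0.92, interval -0.75 to 3.48) did not pass the test, with a limma adjusted p of 0.542. Without vehicle library 1 the estimate was 0.52, without CC-NfL library 2 it was 0.79 and without vehicle library 2 it was 2.15. For FL-NfL the log2 odds ratio was 0.21 (SE 0.92, limma adjusted p = 0.928), and between the proteins -1.16 (SE 0.98, limma adjusted p = 0.920). The latter was -0.53 without CC-NfL library 2, -0.64 without FL-NfL library 1 and -1.62 without CC-NfL library 1. Between batches the estimate was 1.48 (SE 0.78, limma adjusted p = 0.366). For cluster 3 it was 0.85 without vehicle library 1, 2.07 without vehicle library 2 and 0.17 without the 3 libraries numbered 1. Its residual SD of 1.34 ranked 7th of 31.

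Cluster 7, the smallest, varied most. Vehicle libraries had 0.258%, 0.486%, 0.348% and 0.125% of it among annotated cells. FL-NfL libraries had 1.73%, 0.0317% and 1.04%, and CC-NfL libraries 3.33%, 0.116% and 0.368%. The value of 0.0317% in FL-NfL library 2 stands for 1 cell (interval 0.000804% to 0.177%), and the 3.33% in CC-NfL library 1 for 144 cells (2.82% to 3.91%). After FL-NfL 2 libraries lay above all vehicle libraries and 1 below, and after CC-NfL 1 lay above and 1 below. The means after FL-NfL and CC-NfL were 3.07 and 4.18 times the vehicle mean of 0.304% ± 0.152 (SD, n = 4), with SDs of 0.854 and 1.79 percentage points (n = 3 each).

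The log2 odds ratios of cluster 7 were 0.66 (SE 1.49) for FL-NfL, 0.94 (SE 1.49) for CC-NfL and -0.28 (SE 1.58) between the proteins, with limma adjusted p-values of 0.905, 0.770 and 0.920. Leaving out the libraries numbered 1 turned the first and the second to -0.13 and -0.19. The 95% intervals for FL-NfL, -2.77 to 4.08, and for CC-NfL, -2.48 to 4.36, were wider than those of clusters 3 and 17. Its residual SD of 2.23 in log2 odds was the 3rd highest of 31. None of the 3 neuron clusters was among those called, which were 6.45% of 31 clusters after FL-NfL and 6.45% between batches. After CC-NfL limma called 0% of clusters, 3 having p under 0.05 before adjustment, and between the proteins 0%, 1 having such a p. The quasi-binomial model called 0 in both of these comparisons and also 0 between batches.

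**Figure D2:**
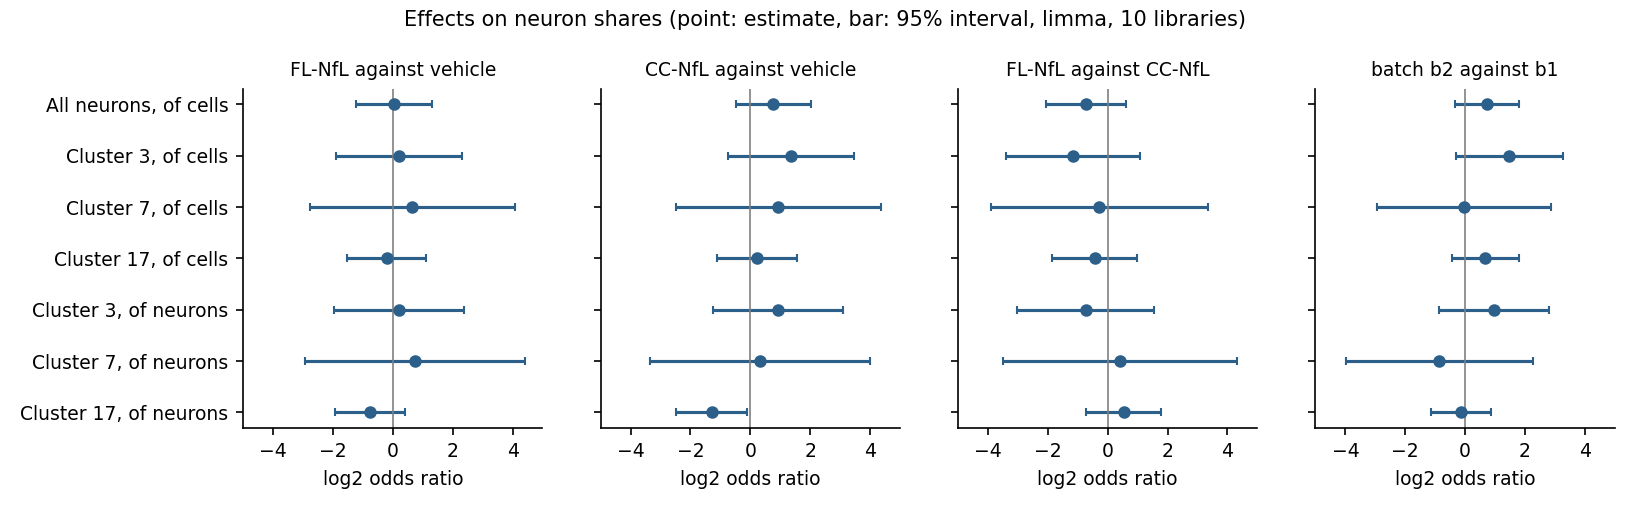
Log2 odds ratios (points) with 95% intervals (bars) from limma over 10 libraries, for neurons and clusters 3, 7 and 17 as shares of annotated cells and for the clusters as shares of neurons, in each of 4 comparisons. The interval for cluster 17 of neurons after CC-NfL, -2.47 to -0.11, is the one that does not reach 0, and its adjusted p was 0.112.

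The make-up of neurons by cluster asks which neurons were recovered, whatever their number. Cluster 17 made up 77.8%, 70.0%, 77.4% and 52.2% of neurons in the vehicle libraries. It made up 57.1%, 65.5% and 52.3% after FL-NfL and 49.6%, 38.9% and 59.3% after CC-NfL. Cluster 17 held the largest part of the neurons in 9 of the 10 libraries, CC-NfL library 2 being the exception. The CC-NfL libraries included 2 below every vehicle library and 1 inside the vehicle range.

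**Figure D3:**
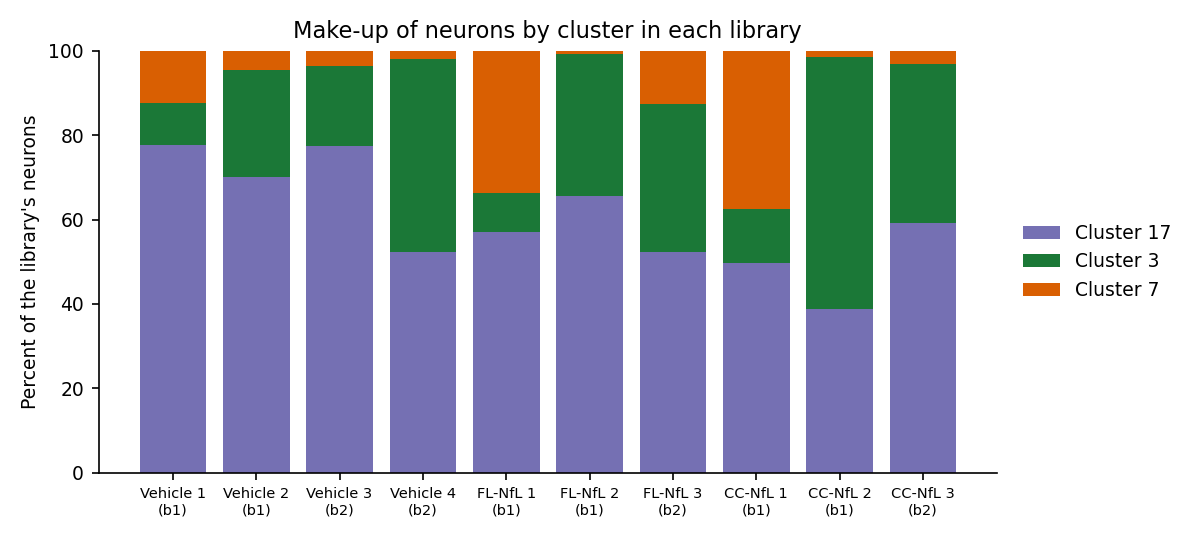
Percent of each library's neurons in clusters 17, 3 and 7 (stacked bars, 10 libraries with their batch). Cluster 17 ranges from 38.9% in CC-NfL library 2 to 77.8% in vehicle library 1, and cluster 7 reaches 33.6% and 37.6% in FL-NfL library 1 and CC-NfL library 1.

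The mean share of cluster 17 within neurons was 69.3% ± 12 in vehicle libraries (SD, n = 4), 58.3% ± 6.70 in FL-NfL libraries (SD, n = 3) and 49.3% ± 10.2 in CC-NfL libraries (SD, n = 3). For CC-NfL against vehicle the log2 odds ratio was -1.29 (SE 0.51, interval -2.47 to -0.11). Its unadjusted p was 0.0356 and its limma adjusted p over 22 clusters within classes was 0.112, so it did not pass. With each library left out in turn, this log2 odds ratio ran from -1.83 to -0.97 and did not pass either. Limma called 0% of the 22 in that comparison, where 8 had p under 0.05 before adjustment. The quasi-binomial model called 6, none of them a neuron cluster. Two-sided exact permutation of the percentages gave p = 0.0857, adjusted to 0.738 over 21 comparisons of neuron shares. Within batch b1 cluster 17 averaged 73.9% of neurons after vehicle and 44.3% after CC-NfL, and within b2 64.8% after vehicle and 59.3% in the single CC-NfL library. For FL-NfL the log2 odds ratio was -0.76 (SE 0.51, limma adjusted p = 0.516), and between the proteins 0.53 (SE 0.54, limma adjusted p = 0.840). In both of these comparisons limma and the quasi-binomial model called 0% of the 22, of which 2 and 0 had p under 0.05 before adjustment.

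Clusters 3 and 7 took up the rest in different ways from library to library. Cluster 3 made up 9.88%, 25.4%, 19.0% and 45.8% of neurons in vehicle libraries, 9.22%, 33.8% and 35.0% in FL-NfL libraries and 12.8%, 59.6% and 37.7% in CC-NfL libraries. For cluster 7 the vehicle libraries gave 12.3%, 4.57%, 3.63% and 1.95%, the FL-NfL libraries 33.6%, 0.676% and 12.7% and the CC-NfL libraries 37.6%, 1.54% and 3.04%. In each group the library numbered 1 had the lowest share of cluster 3 and the highest share of cluster 7. Those 3 libraries held 48.7% of all cluster 7 cells (227 of 466) and 18.0% of annotated cells. Vehicle library 1 gave 10 of these cells, FL-NfL library 1 gave 73 and CC-NfL library 1 gave 144. As a share of annotated cells, cluster 7 in vehicle library 1 was 0.258%, below vehicle libraries 2 and 3.

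The shares of clusters 3 and 7 within neurons did not pass the test in any comparison. For cluster 3 the log2 odds ratio was 0.20 (SE 0.94, limma adjusted p = 0.839) after FL-NfL and 0.93 (SE 0.94, limma adjusted p = 0.596) after CC-NfL. The latter was 0.01 without CC-NfL library 2, and ran up to 1.66 with other single libraries left out. For cluster 7 it was 0.75 (SE 1.60, limma adjusted p = 0.762) and 0.34 (SE 1.60, limma adjusted p = 0.971). The residual SD of cluster 7 within neurons, 2.39 in log2 odds, was the highest of the 22 clusters tested within their classes, whose median was 0.65. Between batches the log2 odds ratios within neurons were 0.96 for cluster 3, -0.87 for cluster 7 and -0.14 for cluster 17, with limma adjusted p-values of 0.824, 0.848 and 0.999. Limma and the quasi-binomial model called 0% of the 22 between batches, of which 4 had p under 0.05 before adjustment.

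The authors' t-SNE map is a flat layout that places cells with like profiles near each other and spans 69.9 by 67.4 map units. On it, the nearest cells of a neuron were mostly of its own cluster. Clusters 7 and 17 each lay in separate parts, described below. Of the 30 nearest cells of a neuron, 99.0% were of the same cluster for cluster 3, 99.2% for cluster 7 and 99.4% for cluster 17. All the others belonged to another neuron cluster, and 0% to another class. These values describe the layout and are no test, since map and clusters come from the same cells. Distances between separate groups of cells are positions in the layout. Likeness of profiles between such groups was not tested. The nearest cell that was no neuron lay a median of 5.49 map units away for cluster 3, 6.59 for cluster 17 and 2.78 for cluster 7. For 44.6% of cluster 7 cells that nearest cell belonged to NPC cluster 10, a cluster of the progenitor class.

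**Figure D4:**
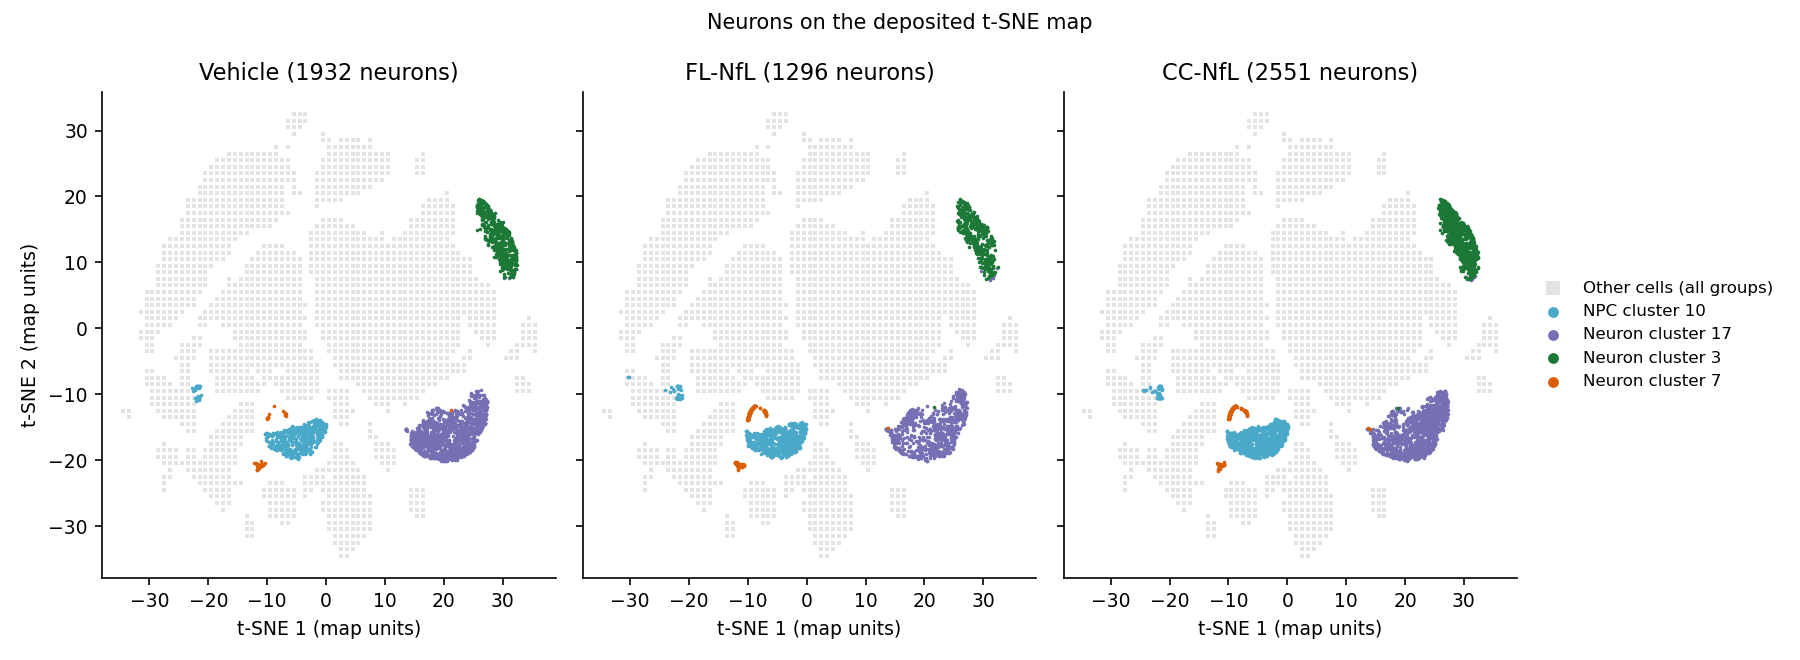
Positions of neurons of clusters 17, 3 and 7 and of NPC cluster 10 on the deposited t-SNE map (axes in map units) for vehicle, FL-NfL and CC-NfL cells, over all other annotated cells (grey). Cluster 7 forms a pair of separate groups of cells on either side of NPC cluster 10, a pair defined after the map was seen. The upper one holds 15 vehicle cells, 128 after FL-NfL and 156 after CC-NfL. These counts are pooled over libraries and not scaled to the annotated cells of each condition. FL-NfL library 1 gave 67 of them and CC-NfL library 1 gave 122, and each condition had a library with none.

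Cells of the same batch lay together more than their numbers give in each neuron cluster. The excess was largest for b1 cells of cluster 17 and smallest for b2 cells of cluster 3. Grouping by batch and grouping by library were not told apart in these values. In that cluster 49.1% of the nearest cells of a b1 neuron were from b1, where cell numbers give 26.2%, and 81.6% of those of a b2 neuron were from b2, where they give 73.8%. In cluster 3 the values were 31.7% against 25.6% for b1 and 75.5% against 74.3% for b2. In cluster 7 they were 61.8% against 53.8% for b1 and 56.7% against 46.0% for b2. A part of cluster 17 with 34 cells lay apart from the other 3382, beside cluster 3, and 33 of these cells came from b2. The 34 cells were 18 from CC-NfL library 3, 9 from FL-NfL library 3, 3 each from vehicle libraries 3 and 4, and 1 from vehicle library 2.

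Cluster 7 lay on the map as 2 islands, one of 299 cells and one of 163, with 4 cells in neither. Islands were defined after the map was seen, by joining cells within 1 map unit, so their values are a description with no test. The larger island held 2, 0, 4 and 9 cells of the vehicle libraries, 67, 0 and 61 of the FL-NfL libraries and 122, 0 and 34 of the CC-NfL libraries. NfL libraries thus gave 284 of its 299 cells (95%), and FL-NfL library 1 and CC-NfL library 1 alone gave 63.2%. In percent of annotated cells, the FL-NfL and CC-NfL libraries with such cells had 1.59%, 0.538%, 2.82% and 0.24%, and the 4 vehicle libraries 0.102% or less. The libraries numbered 2 had none in any group. For a count of 0, 3 divided by the annotated cells gives a rough one-sided 95% upper limit. That limit was 0.0912% in the vehicle, 0.0952% in the FL-NfL and 0.0498% in the CC-NfL library. It is lower than the upper end of a two-sided exact interval, as used for the other shares.

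The smaller island was not of that kind. It held 8, 15, 30 and 2 cells of the vehicle libraries, 6, 1 and 56 of the FL-NfL libraries and 21, 7 and 17 of the CC-NfL libraries. Vehicle gave 33.7% of its cells, FL-NfL 38.7% and CC-NfL 27.6%, and each of the 10 libraries had at least 1. In percent of annotated cells it ran from 0.0227% to 0.456% in vehicle libraries. The range was 0.0317% to 0.494% in FL-NfL libraries and 0.116% to 0.486% in CC-NfL libraries. For 88.3% of its cells the nearest cell that was no neuron belonged to NPC cluster 10. For the larger island this cell belonged to oligodendrocyte cluster 27 in 40.1%, to macrophage cluster 32 in 38.5% and to NPC cluster 10 in 21.4%.

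**Figure D5:**
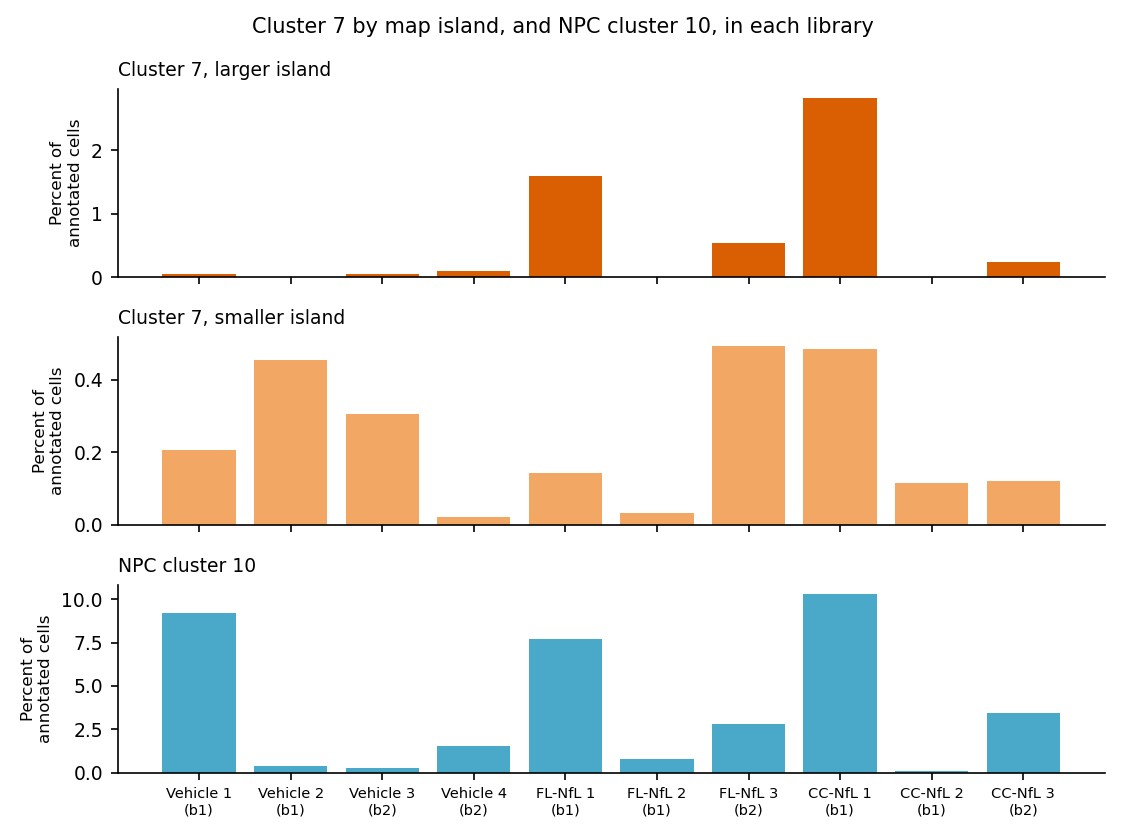
Cells of the larger and of the smaller map island of neuron cluster 7, and of NPC cluster 10, as percent of annotated cells in each of the 10 libraries (bars, batch in brackets). The larger island reaches 1.59% and 2.82% in FL-NfL library 1 and CC-NfL library 1, which also hold 7.70% and 10.3% of NPC cluster 10 cells, while vehicle library 1 holds 9.22% of NPC cluster 10 and 0.0516% of the larger island.

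NPC cluster 10 also differed between libraries, with 357, 13, 28 and 136 cells in the vehicle libraries, 325, 25 and 319 after FL-NfL and 446, 7 and 483 after CC-NfL. The 3 libraries with no cell in the larger island of cluster 7 had 7 to 25 cells of NPC cluster 10. The 4 NfL libraries with such cells had 319 to 483, and the 3 vehicle libraries with such cells had 357, 28 and 136. Per 100 cells of NPC cluster 10, there were 20.6, 19.1, 27.4 and 7.04 cells of the larger island in those NfL libraries and 0.560, 14.3 and 6.62 in vehicle libraries 1, 3 and 4. The ratios of the groups overlapped, and those of vehicle libraries 1, 3 and 4 rest on 2, 4 and 9 island cells. The part that the number of progenitor cells has in the share of cluster 7 was not tested.

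Among neurons, Reelin neurons and NPC together, neurons were 10.5%, 74.3%, 76.5% and 68.2% in the vehicle libraries, 27.5%, 56.9% and 57.9% after FL-NfL and 29.8%, 66.5% and 65.4% after CC-NfL. The libraries numbered 1 were the lowest of each group, and the other 7 lay between 56.9% and 76.5%. Reelin neurons, a class of its own in the annotation, made up 1.16%, 0.973%, 1.12% and 0.0114% of annotated cells in vehicle libraries, 0.0237%, 1.02% and 0.353% in FL-NfL libraries and 0.301%, 1.28% and 0.523% in CC-NfL libraries. With Reelin neurons counted as neurons, the log2 odds ratio of neurons was -0.11 for FL-NfL and did not pass the test.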

How the data were processed

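Single-cell libraries of 10 mouse hippocampus samples were annotated by the authors, who per the submitters' processing notes used Cell Ranger 6.0.1 and the genome build GRCm38. How cells were filtered, clustered, named and mapped, and how doublets were treated, is not given in the sources used here. No doublets were removed for these counts. Of 108266 barcodes in the table, 39352 (36.3%) carry no annotation and were left out. The 68914 others, in 16 classes and 32 clusters, all had the condition and batch of their label. The t-SNE positions are a deposited score with no fixed range and no unit, taken as given.

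The library was the replicate, never the cell, and nothing in the labels pools animals. Cells per class or cluster were turned into log2((cells + 0.5)/(other cells + 0.5)) and fitted with limma 3.58.1 in R 4.3.3, the model holding group and batch. Items averaging 10 or more cells per library were tested, and p-values were adjusted by Benjamini-Hochberg over 16 classes, 31 clusters, or 22 clusters within classes. Tests are two-sided. Library percentages were also compared by exact permutation, adjusted over 21 group and 7 batch comparisons. Neighbours on the map were computed with scipy 1.17.1 and islands with scikit-learn 1.9.0 (DBSCAN, link distance 1 map unit). Islands grew from cells that had at least 10 cells, themselves included, within that distance. The fits were tested on simulated data without a batch effect, set to vary less between libraries than neurons and their clusters did. That test does not show how the fits do at the spread seen here. Alternatives were other scales, models, denominators and batch terms, a block by replicate number, and libraries left out. By the naming rule, the class Neuron and all of its clusters are described, with Reelin neurons and NPC as comparators and any class holding at least 5% of map neighbours, which none did; NPC cluster 10, oligodendrocyte cluster 27 and macrophage cluster 32 were named after their values were seen. The neurons, lists and tests were chosen with earlier results of these data known.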

Additional observations from a re-analysis of the deposited data

Results flagged for a closer look

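Vehicle library 1 stood far from the other vehicle libraries in 1 measure. Among its neurons, Reelin neurons and NPC together, neurons made up 10.5% (95% exact interval 8.39% to 12.8%), against 68.2%, 74.3% and 76.5% in the other 3. Its gap to the nearest of them was 0.874 of the range of the group and exceeded Dixon's critical value for 4 samples. Chance alone puts a sample past this limit in about 1 in 20 groups, and 10 measures were examined. In the same library NPC made up 16.8% of annotated cells, against 1.82% to 2.98% in the other vehicle libraries. FL-NfL library 1 and CC-NfL library 1, in groups of 3 to which this limit was not applied, had 27.5% and 29.8%.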

How the results depend on the processing

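Of 547 values under other settings for 28 results, none passed the threshold and 56 had the opposite sign, all of estimates that were not called; 12 results never changed sign, among them neurons after CC-NfL and between the proteins and cluster 17 within neurons after each protein. Causes were not tested. The neuron estimate for FL-NfL against vehicle, 0.04, became -0.0129 on the arcsine scale, -0.0042 as a centred log ratio, -0.0577 in the quasi-binomial model, -0.0794 without the batch term, -0.14 over all barcodes and -0.11 with Reelin neurons counted. The arcsine value is not in log2 odds. Without the libraries numbered 1, estimates of shares of annotated cells turned to -0.47 (neurons, FL-NfL), -0.16 (cluster 3, FL-NfL), -0.28 (cluster 17, CC-NfL), and for cluster 7 -0.13 (FL-NfL), -0.19 (CC-NfL), 0.0582 (between proteins) and 1.33 (batch). Within neurons they turned to -0.38 (cluster 7, CC-NfL) and, between batches, -0.21, 1.10 and 0.0127 for clusters 3, 7 and 17. In batch b1 only, cluster 7 after FL-NfL was -0.35 of annotated cells and -0.24 of neurons, and between proteins -0.48 of neurons. Other turned values were, for cluster 7 of annotated cells, 0.34 between proteins (quasi-binomial) and 0.73 between batches (all barcodes). They were -0.0369 (no batch term) for cluster 3 of annotated cells and -0.0130 (centred log ratio) for cluster 3 of neurons, both after FL-NfL. For cluster 17 of neurons between batches they were 0.28 (quasi-binomial) and 0.28 (Reelin neurons counted).

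With each library left out in turn, the estimates that changed sign ranged as follows. For FL-NfL against vehicle they ran from -0.51 to 0.59 for neurons, -0.63 to 1.00 for cluster 3, -0.36 to 2.28 for cluster 7 and -0.68 to 0.33 for cluster 17 of annotated cells, and from -0.33 to 0.82 for cluster 3 and -0.35 to 2.48 for cluster 7 of neurons. For CC-NfL they ran from -0.39 to 2.01 for cluster 7 and -0.24 to 0.77 for cluster 17 of annotated cells, and from -1.09 to 1.5 for cluster 7 of neurons. Between proteins they ran from -1.43 to 1.46 for cluster 7 of annotated cells, -1.52 to 0.26 for cluster 3 and -0.84 to 2.27 for cluster 7 of neurons. Between batches they ran from -0.79 to 0.58 for cluster 7 of annotated cells and -0.54 to 0.20 for cluster 17 of neurons. Some that kept their sign also moved by over 1.5 times: for CC-NfL neurons ran from 0.22 (without vehicle library 1) to 1.31 (without vehicle library 2), and cluster 3 of annotated cells from 0.52 to 2.15 without the same libraries. Between batches those 2 libraries took neurons from 0.31 to 1.14, cluster 3 of annotated cells from 0.85 to 2.07 and cluster 17 from 0.32 to 1.08. Between proteins cluster 3 of annotated cells ran from -1.62 (without CC-NfL library 1) to -0.53 (without CC-NfL library 2).

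Groups share replicate numbers, but the labels do not say that a number marks a shared animal or day. Over clusters, deviations from group means correlated between same-numbered libraries with r from 0.07 to 0.67 (9 pairs, 8 above 0.1). The median was 0.39, against -0.15 for 24 pairs with different numbers. All same-numbered pairs also shared a batch, and most of the others did not. Pairs with different numbers but the same batch ran from -0.54 to 0.21. Over classes, same-numbered pairs ran from -0.13 to 0.54 with a median of 0.20, against -0.12 for different numbers. With the replicate number as a block, the neuron estimate for FL-NfL was -0.0583, and for CC-NfL clusters 17 and 3 within neurons were at -1.63 and 1.27, each with a limma adjusted p of 0.0610. The block changed no call. The islands, with link distances of 0.75 and 1.5 chosen after seeing the data, numbered the same, with 33 to 35 cells in the small part of cluster 17. Depth limits cluster 7 most, with 1 to 16 cells in 5 of 10 libraries.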
